A study of Rattus norvegicus with 11 samples.

Results

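The transport and sensing of bile acids in the ileum was followed through 9 genes: Fabp6, Slc10a2, Slc51a, Slc51b, Nr1h4, Nr0b2, Abcc2, Abcc3 and Gpbar1. They were chosen by name, and all 9 were found among the 24481 genes with read counts. RNA of ileal tissue from SD rats of 6 to 8 weeks was sequenced in 3 control rats, 4 rats with severe acute pancreatitis (SAP) and 4 rats with SAP that received JZL184, an inhibitor of monoacylglycerol lipase. SAP was induced by injection of 3% sodium taurocholate, itself a bile salt, into the pancreatic duct. At 24 h after surgery the rats were put into the 3 groups, and the JZL184 rats received 10 mg/kg intraperitoneally, whereas the other rats received vehicle. Rats were killed 24 h after this injection. All groups, control included, are described as formed after surgery, but what operation the control rats had is not described, and the labels give a control plasmid as their treatment.

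Between 26341299 and 33847135 reads per library lay on genes. The first 2 control libraries were nearly the same: the chi-square of their counts, divided by the number of genes, was 2.81, and other pairs of 1 group gave 77.48 to 563.03. They were therefore treated as 1 sample, which left n = 2 in control. SAP libraries 1 and 2 stood apart from SAP libraries 3 and 4, with a mean squared log2 difference of 1.196 to 1.71 between these pairs and 0.46 within them. In the JZL184 group this difference reached 1.81, between libraries 1 and 3. SAP library 2 had 20 reads in all on Uty, Kdm5d and Eif2s3y, which lie on the Y chromosome, where the other libraries had 1222 to 4665, although the methods describe male rats. Although the labels name intestinal epithelial cells, the RNA was that of whole tissue, since the smooth muscle gene Acta2 had an FPKM (a level per gene length and library size) of 83.0 to 266.9. The epithelial gene Epcam had an FPKM of 2219.8 to 3813.6. In such bulk RNA, fewer cells of a type and less RNA per cell cannot be told apart.

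Bile acids are made in the liver, secreted into the gut and mostly recovered in the ileum. The sodium-dependent transporter encoded by Slc10a2 takes them up at the brush border, the ileal lipid-binding protein encoded by Fabp6 carries them through the enterocyte, and the heterodimer of Slc51a and Slc51b exports them at the basolateral side. Bile acids activate the nuclear receptor FXR, encoded by Nr1h4, which together with RXR binds inverted repeats of a hexamer and increases the transcription of Fabp6, Slc51a, Slc51b and Nr0b2. Nr0b2 encodes the corepressor SHP, Abcc2 and Abcc3 encode apical and basolateral export pumps for conjugates, and Gpbar1 encodes a membrane receptor for bile acids.

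The promoter windows of Fabp6, Slc51b and Slc51a are shown because these 3 genes are known FXR targets with the best matches to its site. The RefSeq windows of build GRCr8 reach from 250 bases before to 50 bases after the gene start, and 7 of the 9 genes have one. Each window was searched on both strands for the half-sites AGGTCA and TGACCT with 1 base between them. Capitals mark the best match in lower-case context, 5′ to 3′ on the strand of the gene.
Fabp6, chr10:28569850-28569902, minus strand, 2 mismatches: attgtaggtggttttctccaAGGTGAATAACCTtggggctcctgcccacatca
Slc51b, chr8:74835193-74835245, minus strand, 3 mismatches: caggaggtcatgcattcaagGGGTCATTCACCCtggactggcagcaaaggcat
Slc51a, chr11:81804044-81804096, plus strand, 3 mismatches: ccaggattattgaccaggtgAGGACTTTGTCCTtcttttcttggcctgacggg

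These matches begin 155, 116 and 77 bases before the start of Fabp6, Slc51b and Slc51a. The search was planned for at most 2 mismatches, which Fabp6 alone of the 7 members met, and the matches with more were added after this was seen. Of all 33469 windows, 1.51% had a match with at most 2 mismatches and 12.4% with at most 3. The best match had 4 mismatches in Slc10a2, Nr0b2 and Abcc2 and 5 in Gpbar1, which 57.7% and 98.2% of windows reach. A match of letters is a description and not evidence of binding.

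Fabp6 was the most abundant gene by FPKM in all 3 control libraries. It was lower in every SAP library than in both control samples, and the export subunits Slc51a and Slc51b were likewise lower in every SAP library, whereas the normalized counts of Slc10a2 and Nr1h4 overlapped between the groups. A gene was called where its adjusted p was under 0.05 and its level differed more than 2-fold. Of single genes, 0 of the 8 members with enough reads were called between SAP and control by edgeR's quasi-likelihood test, which called 0 of all 16029 genes, 0%. DESeq2 also called 0 members (1.23% of all genes), as did limma-voom (0.0873%). At an unadjusted p below 0.05 there was 1 member, Fabp6, where 9.09% of all genes had such a p. In 3 of the 8 members, Fabp6, Slc51a and Slc51b, the normalized counts of all SAP libraries lay below both control samples, as in 11.9% of all genes, and in 0 they lay above, as in 11.3% of all genes. The median log2 fold change was -0.89 over the 8 members and 0.06 over all genes.

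The FPKM of Fabp6 (chromosome 10) was 21769, 21819 and 20506 in control libraries 1 to 3. In SAP libraries 1 to 4 it was 6570.5, 3079, 13669.8 and 7598. The groups did not overlap. Control had a mean of 21150.0 ± 910.3 (SD, n = 2) and the SAP mean of 7729 ± 4407 (SD, n = 4) was 0.365 of it. The log2 fold change was -1.60 ± 0.55 (SE, edgeR adjusted p = 0.459 and 0.168 with DESeq2). Over the alternatives with at least 2 samples in each group, the adjusted p (edgeR, DESeq2 or limma-voom) lay between 0.168 and 0.748. With offsets for gene length the log2 fold change was -1.11 (edgeR adjusted p = 0.459). Without SAP libraries 1 and 2 it was -1.08 (edgeR adjusted p = 0.313), and edgeR then called 0 members and 0.482% of all genes. Without SAP library 2, which had few Y-linked reads, the values were -1.32 for Fabp6, -0.61 for Slc51a and -0.73 for Slc51b (each with an edgeR adjusted p of 0.736). Fabp6 took 1.09% to 1.14% of the reads of the control libraries and 0.164% to 0.723% of those of the SAP libraries.

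Slc51a (chromosome 11), the alpha subunit of the exporter, had an FPKM of 547.3, 539.4 and 505.5 in the control libraries and of 239.2, 167.2, 422.2 and 452.1 in SAP libraries 1 to 4. Slc51b (chromosome 8), the beta subunit, had 1891, 1952 and 1837 in the control libraries and 632.3, 397.0, 1249.8 and 1748 in the SAP libraries. For both subunits SAP libraries 1 and 2 were lowest, and SAP library 4 was close to the control level. In SAP against control the log2 fold changes were -0.85 ± 0.48 for Slc51a (SE, edgeR adjusted p = 0.461) and -1.02 ± 0.60 for Slc51b (SE, edgeR adjusted p = 0.463). Without SAP libraries 1 and 2 these values were -0.33 (adjusted p = 0.919) and -0.38 (edgeR adjusted p = 0.908).

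The uptake transporter Slc10a2 (chromosome 16) had an FPKM of 50.9, 51.5 and 82.0 in the control libraries. In SAP libraries 1 to 4 the values were 135.8, 49.6, 71.9 and 83.5, so the groups overlapped and SAP library 1 was highest. Its log2 fold change was 0.20 ± 0.44 (SE, edgeR adjusted p = 0.817), and it turned to -0.06 without SAP library 1 and to -0.05 without the sample of control libraries 1 and 2. The receptor gene Nr1h4 (chromosome 7) had an FPKM of 25.2, 26.6 and 23.2 in the control libraries and of 57.7, 30.5, 31.8 and 33.0 in the SAP libraries. The FPKM of every SAP library was above the control libraries, but the normalized counts overlapped, and the log2 fold change was 0.46 ± 0.35 (SE, edgeR adjusted p = 0.518).

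The remaining members had low levels. The apical pump Abcc2 (chromosome 1) had an FPKM of 3.08, 3.16 and 1.33 in control and of 1.34, 0.71, 1.62 and 1.62 in SAP, a log2 fold change of -0.93 ± 0.50 (SE, edgeR adjusted p = 0.460) that was -0.092 without the sample of control libraries 1 and 2. The basolateral pump Abcc3 (chromosome 10) had 2.33, 2.72 and 2.02 in control and 6.37, 5.03, 2.98 and 1.90 in SAP. Here SAP libraries 1 and 2 were highest, and the log2 fold change of 0.62 ± 0.46 (SE, edgeR adjusted p = 0.512) was 0.015 without them. The SHP gene Nr0b2 (chromosome 5) had 12, 10 and 12 reads in the control libraries and 6, 1, 14 and 1 in the SAP libraries. These groups overlapped, with a log2 fold change of -1.30 ± 0.95 (SE, edgeR adjusted p = 0.508) that was -2.46 without SAP library 3. The membrane receptor gene Gpbar1 (chromosome 9) had between 0 and 4 reads in each of the 11 libraries and was not tested. A count of 0 in 1 library, as in control libraries 1 and 2 and SAP library 2, allows up to 3 reads, so no difference in Gpbar1 was detectable at this depth.

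**Figure D1:**
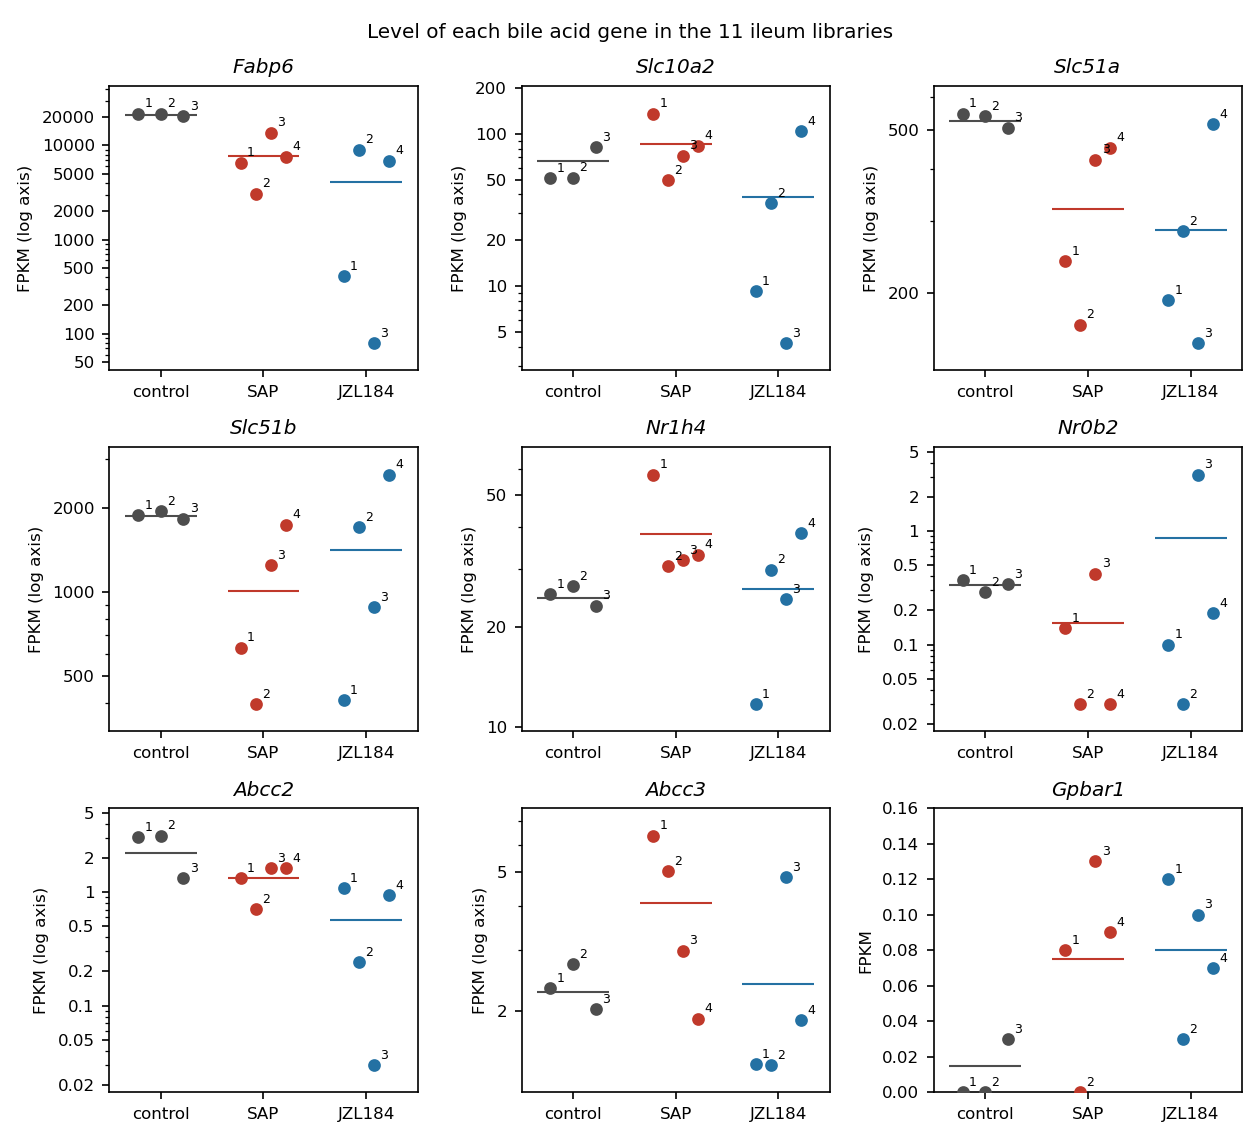
FPKM of the 9 bile acid genes (log axis, linear for Gpbar1) in each library of the control, SAP and JZL184 groups. Points are libraries marked with their replicate number, and lines are group means with control libraries 1 and 2 averaged to 1 sample. Fabp6 lies between 20506 and 21819 in control, at or below 13669.8 in SAP and between 79.9 and 9000.4 in JZL184.

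Between JZL184 and SAP the levels of the members overlapped throughout, and the spread within the JZL184 group was wide. Of the 7 members with enough reads, edgeR called 0 (0% of all 15308 genes called), DESeq2 0 (6.98% of all genes) and limma-voom 0 (4.57%). At an unadjusted p below 0.05 there were 0 members, against 21.3% of all genes. The normalized counts of the groups were fully separate in 0 members, whereas 6.23% of all genes lay entirely above SAP and 5.59% entirely below. The median log2 fold change of the members was -0.60, and over all genes it was -0.05.

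In JZL184 libraries 1 to 4 the FPKM of Fabp6 was 409.7, 9000.4, 79.9 and 6883, so the highest was 112.6 times the lowest. Slc10a2 had 9.24, 34.9, 4.24 and 104.5 in the same libraries. Libraries 1 and 3 were lowest for both genes, and library 4 had the highest Slc10a2 of the group. The log2 fold change against SAP was -0.68 ± 1.13 for Fabp6 (SE, edgeR adjusted p = 0.739) and -0.94 ± 0.83 for Slc10a2 (SE, edgeR adjusted p = 0.515). Without JZL184 library 4 alone Slc10a2 was at -2.13 (edgeR adjusted p = 0.265), and without library 2 alone Fabp6 was at -1.50 (edgeR adjusted p = 0.577). Without JZL184 libraries 1 and 3, an alternative chosen after their values were seen, these were 0.28 (adjusted p = 0.797) and -0.07 (edgeR adjusted p = 0.945, 0 members and 0.0437% of all genes called). Without SAP libraries 1 and 2 edgeR called 0 members and 0% of all genes, and Fabp6 was at -1.21.

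The export subunits were less spread. Slc51a had an FPKM of 191.7, 282.7, 150.8 and 515.4 in the JZL184 libraries and a log2 fold change against SAP of -0.02 ± 0.50 (SE, edgeR adjusted p = 0.985). Slc51b had 410.5, 1708, 881.3 and 2643, with a log2 fold change of 0.63 ± 0.66 (SE, edgeR adjusted p = 0.577). In JZL184 library 4 both subunits were as high as in control or higher, whereas in library 1 Slc51b was close to its lowest level in SAP. The sign for Slc51a was not stable, and it was 0.51 without JZL184 libraries 1 and 3.

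Nr1h4 had an FPKM of 11.7, 29.8, 24.2 and 38.4 in the JZL184 libraries, with the lowest level of all 11 libraries in library 1 (log2 fold change against SAP -0.35 ± 0.39, SE, with an edgeR adjusted p of 0.605). Abcc2 had 1.08, 0.24, 0.03 and 0.94 (log2 fold change -1.08 ± 0.78, SE, with an edgeR adjusted p of 0.421). Abcc3 had 1.41, 1.40, 4.85 and 1.88, a log2 fold change of -0.60 ± 0.46 (SE, edgeR adjusted p = 0.448). Library 3 thus had the lowest Abcc2 and the highest Abcc3 of its group. The same library had 106 reads on Nr0b2, where libraries 1, 2 and 4 had 4, 1 and 6, and Nr0b2 had too few reads for a test in this comparison.

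In JZL184 against control, which sets rats with both SAP and treatment beside rats with neither, edgeR called 0 of the 8 members tested, although it called 2.16% of all 15916 genes. DESeq2 called 0 members (10.8% of all genes) and limma-voom 0 (18.3%), and 0 members had an unadjusted p below 0.05 with edgeR (26.3% of all genes). Fabp6 and Abcc2 were the 2 members whose normalized counts lay below both control samples in all 4 JZL184 libraries, as in 19.3% of all genes, and 0 lay above, as in 18.9%. The log2 fold change was -2.30 ± 1.36 for Fabp6 (SE, edgeR adjusted p = 0.312) and -2.03 ± 0.95 for Abcc2 (SE, edgeR adjusted p = 0.214). Over the alternatives with at least 2 samples in each group, the adjusted p (edgeR, DESeq2 or limma-voom) was 0.0163 to 0.375 for Fabp6 and 0.0302 to 0.333 for Abcc2. The 0.0163 came from leaving out JZL184 libraries 1 and 3, chosen after their values were seen.

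Without JZL184 libraries 1 and 3, Fabp6 was called lower than in control, with a log2 fold change of -1.34 (edgeR adjusted p = 0.0163), and so was Abcc2 with -1.90 (edgeR adjusted p = 0.0308). These 2 of 8 members stood beside 19.4% of all genes called in this fit. The fit was chosen after the values were seen and had 2 samples in each group. It left out the JZL184 libraries lowest in Fabp6, which narrowed the spread that the p-value of Fabp6 measures. The same 2 libraries were the highest and the lowest of the group in Abcc2, with an FPKM of 1.08 and 0.03. The calls of Fabp6 and Abcc2 therefore cannot decide whether the groups differ. In JZL184 libraries 2 and 4 Fabp6 was thus below both control samples, while Slc10a2 and Slc51b had log2 fold changes of 0.11 and 0.26 (adjusted p = 0.882 and 0.611 with edgeR). With all 4 libraries Slc10a2 was at -0.77 ± 1.03 (SE, edgeR adjusted p = 0.662), Slc51a at -0.89 ± 0.50 (0.293) and Slc51b at -0.41 ± 0.66 (0.722). For Slc51a the adjusted p was 0.0439 to 0.505 over the alternatives with at least 2 samples in each group. With a replicate block and the control libraries as separate samples, Slc51a was called at -1.45 (edgeR adjusted p = 0.0439) and Abcc2 at -3.35 (edgeR adjusted p = 0.0302). This fit called 1488 genes in all. It counts the nearly identical control libraries 1 and 2 as separate rats and blocks on replicate numbers that were not taken to pair rats. Without the block and with control libraries 1 and 2 as 1 sample, Nr1h4 was at 0.08 ± 0.47 (SE, edgeR adjusted p = 0.934) and Abcc3 at -0.01 ± 0.50 (0.99). Both turned in sign when single libraries were left out. Nr0b2 was at 1.24 ± 1.47 (SE, edgeR adjusted p = 0.614) and turned to -1.64 without JZL184 library 3.

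**Figure D2:**
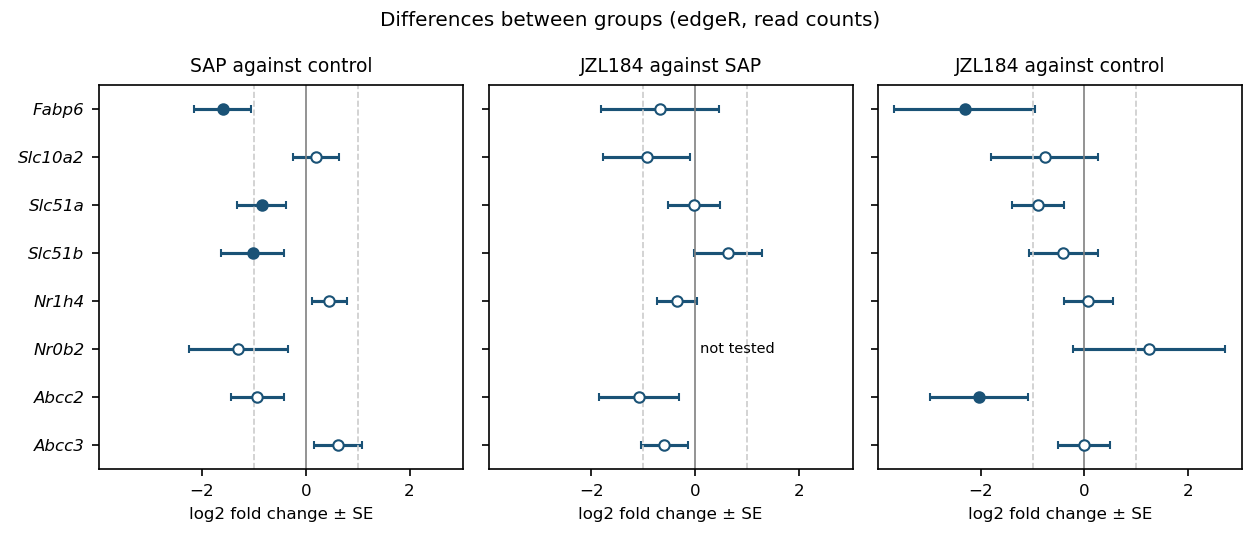
Log2 fold change (x axis) of the 8 members tested, from edgeR on read counts, with bars of 1 standard error. Filled points have groups whose normalized counts did not overlap, dashed lines mark a fold change of 2 or 0.5, and 0 members were called. Fabp6 is at -1.60 in SAP against control and at -2.30 in JZL184 against control.

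Within a library, the members did not keep the same proportions. The FPKM of Fabp6 was 427.3, 424.0 and 250.02 times that of Slc10a2 in the control libraries. In SAP libraries 1 to 4 the ratio was 48.4, 62.1, 190.2 and 91.0, below every control library. In JZL184 libraries 1 to 4 it was 44.3, 257.7, 18.8 and 65.9, so that library 2 alone reached the control range. The ratios are not corrected for trends with gene length that differ between libraries. In SAP against control, offsets for such trends moved the log2 fold change of Fabp6 from -1.60 to -1.11. They moved that of Slc10a2 from 0.20 to 0.013. Relative to Epcam, an adhesion protein of epithelial cells, Fabp6 was at 5.38 to 7.03 in control, 1.39 to 4.81 in SAP and 0.0246 to 3.10 in JZL184. By this ratio it was lower in every SAP and JZL184 library than in control. Ratios to the other epithelial markers were not taken. Of these, Krt8 was itself lower in every SAP and JZL184 library than in control, and Cdh1 was higher. The result thus holds for Epcam and not for the epithelium as a whole.

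The ratio of Slc51b to Slc51a was steady in the control libraries at 3.45, 3.62 and 3.63. It was 2.64, 2.37, 2.96 and 3.87 in SAP libraries 1 to 4. In JZL184 libraries 2, 3 and 4 it was above all others at 6.04, 5.84 and 5.13, while library 1 had the lowest value of all with 2.14. These ratios were examined after the levels had been seen and are given without a test.

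**Figure D3:**
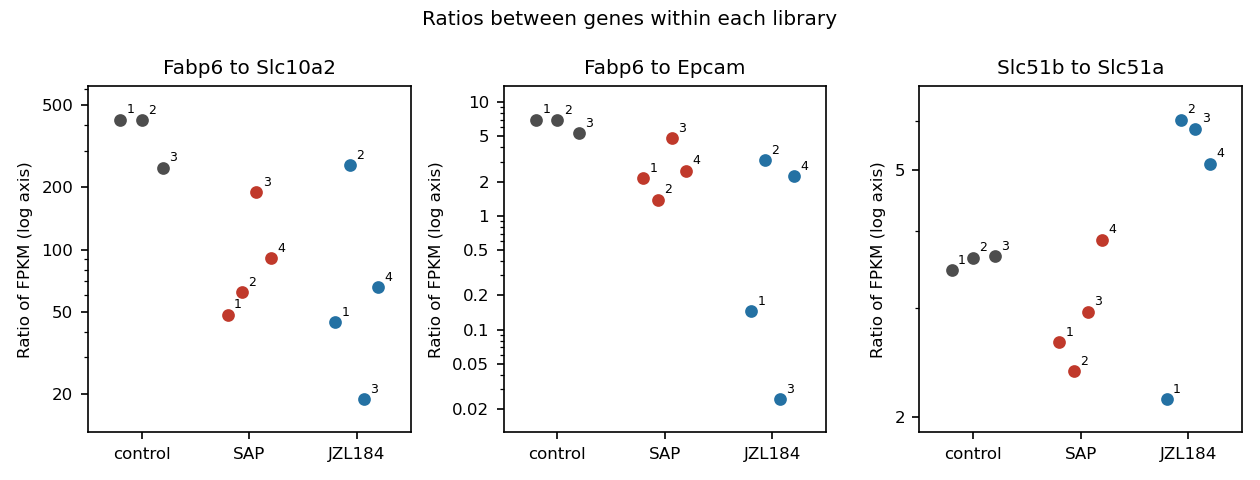
Ratio of the FPKM of 2 genes within each library (log axis) for Fabp6 to Slc10a2, Fabp6 to Epcam and Slc51b to Slc51a. Points are libraries marked with their replicate number. The ratio of Fabp6 to Slc10a2 lies between 48.4 and 190.2 in SAP and at or above 250.02 in control.

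Genes of gut position stood out in some of the libraries with low Fabp6. Lct, the lactase of the proximal small intestine, had an FPKM of 44.5 in JZL184 library 1, and 7.58 in SAP library 2, 3.51 in JZL184 library 4 and at most 0.41 in the other libraries. Gata4, a transcription factor of the proximal small intestine, had 7.73 in JZL184 library 1, 3.65 in SAP library 2 and at most 0.34 elsewhere. JZL184 library 1 also had the highest levels of the proximal genes Fabp1 (14085), Rbp2 (2251) and Slc46a1 (2.18). The other proximal markers were not high in this library, with Cybrd1 at 0.40, against 0.54 to 0.75 in control, and Slc40a1 at 0.74, against 0.87 to 1.26. The 6 proximal markers summed, per sample, to 6276 to 8036 in control, 3658 to 8340.1 in SAP and 1366 to 16384 in JZL184.

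Car1, a carbonic anhydrase of the colon, had an FPKM of 477.5 in JZL184 library 3, 24.5 in JZL184 library 2 and at most 0.79 in the other libraries. In JZL184 library 3 the enterocyte genes were low, with an Anpep of 8.51 against 539.1 to 779.1 in the other JZL184 libraries and a Fabp2 of 265.6 against 5888 to 8101. The 5 colon markers found of 6 summed to 9.0 to 17.0 in control, 19.2 to 42.9 in SAP and 31.2 to 518.9 in JZL184, while the colon transcription factor gene Hoxd13 was listed at 0 or at most 0.04 throughout. The 7 enterocyte markers found of 8 summed to 7194 to 10153 in control, 1167 to 8037 in SAP and 282.6 to 9465 in JZL184. The 2 JZL184 libraries with the lowest Fabp6 and Slc10a2 were thus the library highest in Lct and Gata4 and the library highest in Car1. The part of gut position in these levels was not tested, and the values without both libraries are given above.

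The 8 epithelial markers, from Epcam to the keratin genes, summed to 17974 to 21954 in control, 8356 to 14295 in SAP and 7854 to 10047 in JZL184. This sum, lower in every SAP and JZL184 library than in control, was mostly that of the abundant keratin genes, with Krt8 at 3298 to 4586 in control, 1202 to 2265 in SAP and 1247 to 1625 in JZL184. The E-cadherin gene Cdh1, also of this list, was higher in every SAP and JZL184 library than in control, with 105.02 to 117.7 in control, 132.2 to 165.6 in SAP and 151.3 to 193.7 in JZL184. Epcam itself ranged from 3095 to 3814 in control, from 2219.8 to 3059 in SAP and from 2802 to 3249 in JZL184. Vil1 of the brush border was at 260.5 to 496.3 in control, 263.4 to 372.1 in SAP and 64.0 to 192.7 in JZL184. Summed smooth muscle markers were at 1872 to 2064 in control, 801.0 to 2023 in SAP and 366.7 to 2115 in JZL184, and the leukocyte markers, among them Ptprc, at 81.5 to 85.8, 81.8 to 125.1 and 73.0 to 301.8. The leukocyte sum joined markers that differed in opposite directions. Cd79a was at 50.84 to 62.72 in control and lower in every SAP library, with 5.94 in SAP library 1. S100a8 was at most at 0.63 in control, at 3.56 to 39.55 in SAP and at 6.33 to 148.71 in JZL184. The sum of 301.8, in JZL184 library 2, was mostly S100a8 (148.71) and S100a9 (95.6), with Ptprc at 2.79. The part of the epithelial share in the levels of the bile acid genes was not tested. Fibroblast markers summed to 61.6 to 89.4 in control, 61.0 to 136.9 in SAP and 30.1 to 60.1 in JZL184, endothelial markers to 16.6 to 18.2, 22.0 to 29.2 and 22.5 to 30.9, and markers of enteric neurons and glia to 5.91 to 7.97, 7.97 to 12.8 and 7.77 to 12.5. The 4 liver markers were each at most at 0.94, the value of Serpina1 in SAP library 4. Of the 3 pancreatic markers found of 5, Prss1 and Cpa1 were at most at 0.17, and Cela1 was at 10.7 to 12.04 in control, 4.88 to 10.7 in SAP and 4.19 to 9.32 in JZL184.

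**Figure D4:**
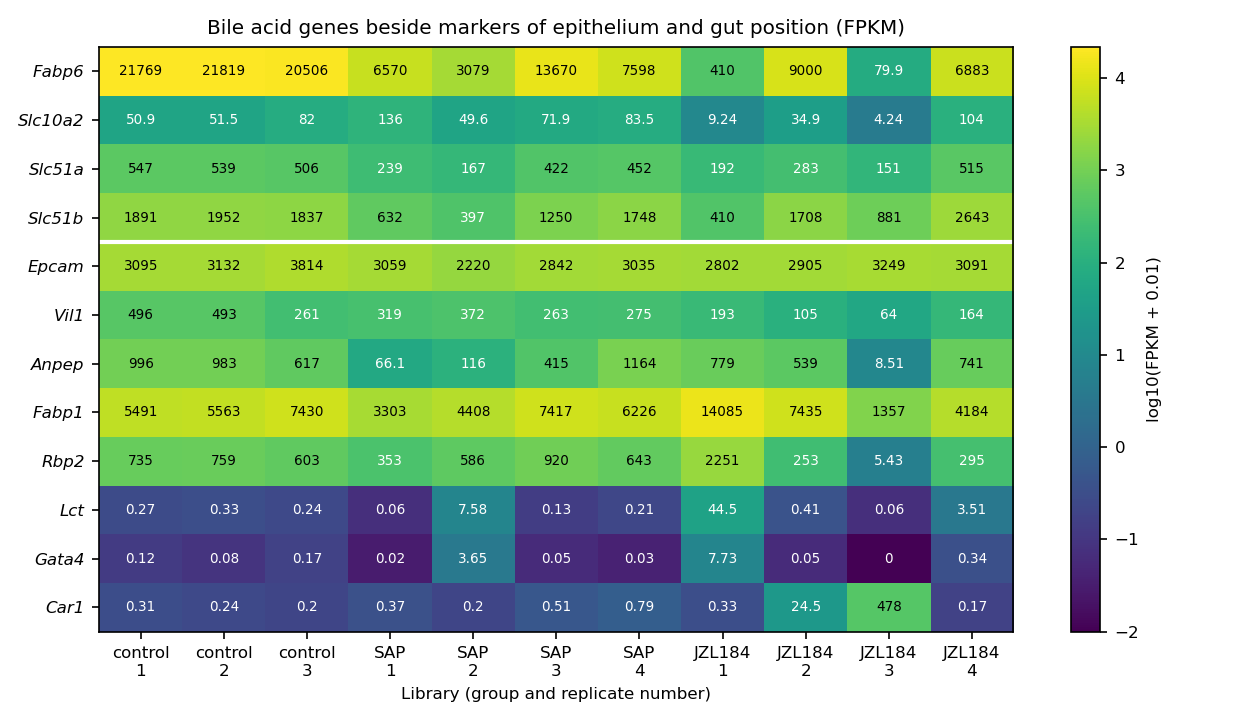
FPKM (numbers) of the 4 main transport genes above the white line and of 8 markers below it in the 11 libraries, with color as log10 of the FPKM plus 0.01. Fabp6 is lowest in JZL184 library 3, where Car1 reaches 477.5, and in JZL184 library 1, where Lct reaches 44.5.

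Across the 10 samples, Fabp6 and Slc10a2 had a Pearson r of 0.90 between their log2 CPM, reads scaled to library size, and Slc51a and Slc51b one of 0.89, a description over samples that share groups and libraries of unequal makeup. Fabp6 and Slc51b were less alike, with 0.59, and Abcc3 had negative values with Slc51a (-0.44) and Slc51b (-0.39). Of 11485 other genes with a mean of at least 100 reads, those most like Fabp6 were LOC102551356 (0.95), Suox (0.95) and LOC120100713 (0.95). For Slc10a2 they were Cacna1a (0.94), RT1-DMb (0.94) and RGD1559575 (0.94), for Slc51a Relb (0.95), Tmem102 (0.95) and Ano2 (0.94), and for Slc51b Pwwp2b (0.96), LOC100362069 (0.96) and Myl12b (0.95).

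Beyond the 9 members, 51 genes of bile acid receptors, hormone signaling, transcription factors, other transporters, synthesis and detoxification were listed, of which 45 were in the table. By edgeR 0 were called in any of the 3 comparisons. In SAP against control, 37 were tested, 4 were higher and 1 lower at an unadjusted p below 0.05, DESeq2 called 1 and limma-voom 0. In JZL184 against SAP, 34 were tested, 5 were higher and 6 lower at an unadjusted p below 0.05, and limma-voom called 1. DESeq2, which tests more genes, called 4, of which Slco1a5, with 0 reads in every JZL184 library and 2 to 13 in SAP, was not among the 34. In JZL184 against control, 36 were tested, 5 were higher and 4 lower at an unadjusted p below 0.05, DESeq2 called 5 and limma-voom 7. At an unadjusted p below 0.05 with edgeR these were 5 of 37, 11 of 34 and 9 of 36 genes. The shares of all genes were 9.09%, 21.3% and 26.3% in the same comparisons, so the last count was no more than that of all genes. The shares of all genes called by each tool are those given above for the same comparison.

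Among the detoxification genes, Ugt1a1, which conjugates bilirubin and shares exons with other Ugt1a genes, had an FPKM of 1.38 to 1.71 in control, 3.81 to 10.4 in SAP and 3.64 to 14.05 in JZL184. Both groups lay above control, by 1.94 ± 0.51 (SE, edgeR adjusted p = 0.459 and 0.0203 with DESeq2) and 2.45 ± 0.57 on the log2 scale (SE, edgeR adjusted p = 0.0631 and 0.000275 with DESeq2). Of the enzymes of bile acid synthesis, Cyp27a1, a sterol hydroxylase, had 2.42 to 3.59 in control, 2.40 to 5.87 in SAP and 6.31 to 24.7 in JZL184, with the highest value in library 3. It was higher in every JZL184 library than in the other groups by FPKM, although its normalized counts overlapped with SAP. Its log2 fold change was 2.19 ± 0.48 against SAP (SE, edgeR adjusted p = 0.0851 and 0.000753 with DESeq2) and 2.37 against control (edgeR adjusted p = 0.0651 and 0.000518 with DESeq2). Cyp7b1, another hydroxylase of this pathway, had 0.37 to 0.70 in control, 0.76 to 2.03 in SAP and 1.40 to 2.79 in JZL184. The SAP libraries also lay above control, at 1.01 ± 0.48 (SE, edgeR adjusted p = 0.459), and JZL184 against control had a log2 fold change of 2.04 ± 0.48 (SE, edgeR adjusted p = 0.0631 and 0.00132 with DESeq2).

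Slco2b1, an organic anion transporter, had an FPKM of 9.19 to 9.83 in control, 4.54 to 7.58 in SAP and 3.56 to 4.92 in JZL184. Against control, JZL184 had a log2 fold change of -1.14 ± 0.24 (SE, edgeR adjusted p = 0.0533 and 0.0126 with DESeq2). Hnf4a, a transcription factor of the gut epithelium, had 57.6 to 59.5 in control, 53.9 to 132.0 in SAP with libraries 1 and 2 highest, and 15.9 to 47.2 in JZL184. Against SAP, its level in JZL184 had a log2 fold change of -1.51 ± 0.39 (SE, edgeR adjusted p = 0.105 and 0.0105 with DESeq2), and that of Nr5a2, a nuclear receptor that activates bile acid genes, was -0.94 ± 0.32 (SE, edgeR adjusted p = 0.16). In SAP against control, the conjugating enzyme gene Baat was at 2.17 ± 0.85 (SE) and Malrd1, linked to secretion of the ileal hormone, at 1.62 ± 0.66 (SE), both with an edgeR adjusted p of 0.459. Baat had few reads, with 6, 9 and 1 in the control libraries and 13, 29, 34 and 28 in SAP libraries 1 to 4. Malrd1 had an FPKM of 2.22, 2.47 and 2.77 in control. In SAP libraries 1 to 4 it had 12.07, 17.16, 3.43 and 3.98, so libraries 1 and 2 were highest.

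The ileal hormone gene Fgf19, a target of FXR that signals to the liver to lower bile acid synthesis, was named after its values were seen. It had 1, 9 and 10 reads in the control libraries, 66, 4, 11 and 2 in the SAP libraries and 10, 13, 130 and 420 in the JZL184 libraries. Libraries 3 and 4 of JZL184 thus had more reads than all others, and library 4 also had the highest Slc51b, whereas library 3 had the lowest Fabp6. The log2 fold change of Fgf19 in JZL184 was 3.28 ± 1.31 against SAP (SE, edgeR adjusted p = 0.198) and 4.35 ± 1.68 against control (SE, edgeR adjusted p = 0.151), with overlap in both comparisons.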

How the data were processed

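Stranded mRNA libraries were made from ileal tissue, with 3 rats in control and 4 each in SAP and JZL184. According to the labels and methods, reads were trimmed and aligned to mRatBN7.2 with HISAT2. The authors deposited the count of uniquely aligned reads per gene, without normalization, and FPKM to 2 decimals. No counting tool or annotation is named in what was read here. For control libraries 1 and 2, taken as 1 sample, reads were summed and FPKM averaged. Groups were compared in pairs with edgeR 4.0.16 in R 4.3.3 (quasi-likelihood test, TMM, filterByExpr with a minimum count of 10), with Benjamini-Hochberg adjustment over all genes. The SE is the size of the log2 fold change divided by the root of F. Alternatives were DESeq2 1.42.0, limma 3.58.1 (voom with sample quality weights), DESeq2 size factors, other filters, no fold threshold, 1 fit of all groups, offsets for gene length, a replicate block, separate control libraries and left-out libraries. No label says that rats shared a litter or day, and p-values measure the spread between these samples. The fits were checked on simulated counts. The members, the pathway list and the marker lists were chosen with earlier results of these data known. Of the pathway list, the genes called by edgeR or, where fewer than 3 were called, the 3 with the smallest p are named, and for 4 members the 3 genes with the highest r. Of the markers, Vil1, Epcam, Fabp1, Car1 and Ptprc were to be named, and the others were named after their values were seen. Promoter windows are from RefSeq (GRCr8).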

Additional observations from a re-analysis of the deposited data

Results flagged for a closer look

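Of the 18 groups of 4 libraries examined for the 9 members, 3 held a library whose distance to its nearest neighbor, divided by the range of the group, was above Dixon's critical value for 4 samples. Chance gives about 1 in 20 groups. The FPKM of Nr1h4 was 57.69 in SAP library 1, against 30.5 to 33.0 in the other SAP libraries. Nr0b2 was at 3.14 in JZL184 library 3, against 0.03 to 0.19 in the other JZL184 libraries. Abcc3 was at 4.85 in the same library, against 1.40 to 1.88. JZL184 library 3 was also the library with a Car1 of 477.5 and the lowest Fabp6.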

How the results depend on the processing

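In SAP against control and in JZL184 against SAP, 0 members were called under every alternative run. Many of these fits called 0 of all genes, so there the count of members could only be 0. The most genes called in these comparisons were 208 (1.23%) and 1283 (6.98%), both with DESeq2. In JZL184 against control 2 members were called without JZL184 libraries 1 and 3 (Fabp6 and Abcc2, an alternative chosen after seeing the data). With the replicate block and separate control libraries 2 members were called (Slc51a at -1.45 and Abcc2 at -3.35). Replicate numbers were not taken to pair the rats, since no pairing showed in the deviations from the group means. For same-numbered SAP and JZL184 libraries these deviations, in log2 CPM, had correlations of 0.14, -0.47, -0.01 and -0.11. The block called 0 members between these groups, and 0 of all genes. Of the other pathway genes, where edgeR called 0, DESeq2 called 1, 4 and 5 in the 3 comparisons. In JZL184 against SAP limma-voom called 1, the fit of all 3 groups 1, and leaving out single samples 0 to 2. In JZL184 against control limma-voom called 7, no filter 4, at least 10 reads in every library 1, gene length offsets 1, separate control libraries 8, these together with the block 5, leaving out JZL184 libraries 1 and 3 10, and leaving out single samples 0 to 5. Over all genes, the 343 calls of this comparison became 929 without a filter, 2800 with separate control libraries, 1488 with these and the block together, 1867 without JZL184 library 1, 860 without library 3, 25 without library 2, 78 without library 4 and 0 or 1 without a control sample. The same 343 calls became 2967 without JZL184 libraries 1 and 3 together, 328 with at least 10 reads in every library and 332 with gene length offsets. In JZL184 against SAP, 0 calls over all genes became 655 without JZL184 library 1 and 207 in the fit of all groups.

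Of the alternative log2 fold changes of members, 372 kept their sign and their side of the threshold, 25 changed sign and 4 passed the threshold. The 372 include the setting without a fold threshold, whose log2 fold changes are those of the same edgeR fit and could not differ. To keep the side of the threshold meant to stay uncalled, also in fits that called few or 0 of all genes. With gene length offsets, SAP against control gave -1.11 for Fabp6, -0.64 for Slc51a, -0.69 for Slc51b and 0.013 for Slc10a2. The same fit gave 0.39 for Nr1h4, -0.93 for Nr0b2, -1.14 for Abcc2 and 0.12 for Abcc3. In JZL184 against SAP these offsets moved Fabp6 from -0.68 to -1.21. Without JZL184 libraries 1 and 3 the sign turned in JZL184 against SAP for Fabp6 (0.28), Slc51a (0.51) and Nr1h4 (0.087), and in JZL184 against control for Slc10a2 (0.11), Slc51b (0.26) and Nr0b2 (-1.56). Slc51a against SAP was also 0.25 with limma-voom and 0.0023 with DESeq2 size factors. Against control, Nr0b2 was -0.70 with limma-voom and -0.19 with the block and separate control libraries together, and in that fit Nr1h4 was -0.33. Leaving out single samples gave -0.065 to 0.50 for Slc10a2 in SAP against control and -0.47 to 0.26 for Slc51a in JZL184 against SAP. In JZL184 against control it gave -0.16 to 0.33 for Nr1h4, -1.64 to 1.64 for Nr0b2 and -0.55 to 0.22 for Abcc3. The causes were not tested. Gpbar1, with at most 4 reads a library, was below what this depth can compare.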
